A study of Homo sapiens with 12 samples.

Results

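The genes described here are 9 classical androgen target genes, which are KLK2, KLK3, KLK4, TMPRSS2, FKBP5, STEAP4, STEAP1, SLC45A3 and FOLH1. They were chosen by symbol among 30006 genes listed in the count tables of 2 RNA-Seq experiments on prostate cancer cells, and all 9 are listed in both tables. The choice was made with their values in these 12 libraries known, so their levels and changes are a description, and where calls of the fit across all genes are counted among them, the counts support nothing. Androgens regulate such genes through androgen response elements in promoters and distant enhancers, where pioneer factors such as FOXA1 open the chromatin and coactivators are recruited. In luminal cells of the prostate the target genes encode secreted kallikreins, membrane proteins and cochaperones. Drugs such as enzalutamide (ENZ) block androgen signalling, and the transcripts of these targets are widely used as its readout.

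Each experiment had 2 groups of 3 libraries. In the MUC1-C silencing experiment, the ENZ-resistant line LNCaP-ER carried a doxycycline (DOX)-inducible MUC1 shRNA, and all 6 cultures share the selection for resistance and this shRNA. The cultures received vehicle or 500 ng/mL DOX for 7 days. LNCaP is an established, androgen-responsive prostate cancer line. In the MUC1-C overexpression experiment, libraries labelled LNCaP and wild-type, whose columns are named vector, were compared with LNCaP/MUC1-C OE libraries, whose label reads tetMUC1-C and in whose titles the prefix sh stands before MUC1-C. MUC1-C is the transmembrane subunit of mucin 1. Whether ENZ or DOX was present in the medium of every group, and whether these lines are clones, is not given in the sources used here. Cultures were grown in triplicate, so the spread between libraries is that of cultures of a line.

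Some libraries did not follow their labels. The counts of MUC1, against which the shRNA is directed, were 26, 10 and 13 with vehicle and 3, 42 and 8 in replicates 1, 2 and 3 of the DOX label. Replicate 2 therefore held more MUC1 reads than any vehicle library, and values are also given without it where it sets them. The fitted log2 fold change of MUC1 was positive with all libraries. Without DOX replicate 2 it was -1.83 and did not pass (edgeR adjusted p = 0.0617). These values rest on few reads, so a fall of MUC1 RNA was not established here. The DOX libraries are so called by their label. DOX replicate 2 had no read on 11.2% of listed genes, against 28% to 38.1% in the other 5 libraries. In the overexpression experiment the MUC1 counts were 30, 25 and 31 under the LNCaP label and 9168, 9959 and 12622 under the MUC1-C OE label, where a transgene adds to the count. Total counts were 28045894 to 45807989 per library in the silencing experiment and 13806856 to 19208944 in the overexpression experiment, so a gene of a given level rests on fewer reads in the second.

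KLK3 and KLK2, the genes through which promoter-proximal androgen response elements became known, lie side by side on chromosome 19 (GRCh38). KLK3 spans chr19:50854915-50860764 and KLK2 spans chr19:50873439-50880567, both on the plus strand. Their RefSeq promoter windows (GRCh38.p14), which run from 250 bases before the annotated start to 50 bases after it, are shown because they hold close and aligned matches to the palindromic element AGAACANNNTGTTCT. The capitals mark the 15 bases of that match, and the letters N were not compared. The element is its own reverse complement, so both strands were searched at once.
KLK3, chr19:50854665-50854964, plus strand: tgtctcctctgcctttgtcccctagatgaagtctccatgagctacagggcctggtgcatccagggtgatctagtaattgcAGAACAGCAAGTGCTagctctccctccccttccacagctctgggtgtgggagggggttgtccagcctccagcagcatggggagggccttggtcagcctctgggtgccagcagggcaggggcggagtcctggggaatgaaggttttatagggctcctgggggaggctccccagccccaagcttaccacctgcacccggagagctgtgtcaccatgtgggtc
KLK2, chr19:50873189-50873488, plus strand: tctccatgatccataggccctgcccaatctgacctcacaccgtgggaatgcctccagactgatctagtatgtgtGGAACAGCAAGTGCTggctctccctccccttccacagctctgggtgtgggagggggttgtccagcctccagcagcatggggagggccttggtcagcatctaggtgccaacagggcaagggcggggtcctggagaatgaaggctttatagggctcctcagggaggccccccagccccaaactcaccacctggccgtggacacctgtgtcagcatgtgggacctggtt

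The KLK3 match lies from position -170 to -156 relative to the start and differs from the element at 2 of 12 compared bases. The KLK2 match lies from -176 to -162 and differs at 3. Between them stands 1 substitution, A1G, counted from 1 at the first capital with the KLK3 base first. Shifted by 6 bases so that the matches align, the windows were identical at 225 of 294 positions (76.5%). A match with at most 2 mismatches was found in 1.41% of 35116 promoter windows of all genes and in 1 of the 9 windows available here, that of KLK3. With at most 3 mismatches the share was 10.8% of all windows, and the windows of KLK2, KLK3 and FKBP5 held a match, the last with 1 of its 2 windows. The half-site AGAACA or TGTTCT, which the KLK3 match contains, stood in 14.8% of all windows and in 2 of the 9, those of KLK3 and FKBP5. In 135 windows of other androgen-induced genes, described below, each share was lower than among all windows. It was 0.741% with at most 2 mismatches, 5.93% with at most 3 and 6.67% for the half-site. Windows were available for 7 of the 9 genes, with 2 for KLK4 and 2 for FKBP5, and not for TMPRSS2 and FOLH1. These are matches of letters, and binding was not measured in these data.

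In the silencing experiment, KLK2, KLK3, KLK4, TMPRSS2, SLC45A3 and STEAP4 were higher in every library labelled DOX than in any vehicle library. STEAP1 and FOLH1 overlapped between the groups, and FKBP5 was high in only 2 of the 3 DOX libraries. Of the 9 genes, 6 passed an adjusted p of 0.05 in edgeR as higher and none as lower, where 12.8% of the 14683 genes tested passed as higher and 14.5% as lower. At an unadjusted p under 0.05 the counts were 7 and 0, and with DESeq2 they were 6 and 0. Without DOX replicate 2, FKBP5 passed as higher and STEAP1 as lower, which made the counts 7 and 1. Groups that did not overlap, with DOX higher, were found for 6 of the 9 and for 21.2% of all genes tested. Since this contrast was used to choose the genes, no more is read from these counts. The median log2 fold change of the 9 genes was 0.84, against -0.02 over all genes tested. Below, levels are given as CPM, read counts scaled to a common library total with factors from the trimmed mean of M values (TMM CPM), log2 fold changes are DOX minus vehicle with their standard error (SE), and libraries are listed in the order of replicates 1, 2 and 3.

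KLK3 encodes prostate-specific antigen, a secreted serine protease measured in blood to follow prostate cancer. Its level was 122, 154 and 149 CPM in the vehicle libraries and 311, 374 and 275 CPM in the DOX libraries. The groups were separated by a wide gap, with the highest value in DOX replicate 2, and the log2 fold change was 1.18 (SE 0.14, n = 3 per group). KLK2, a kallikrein that activates the KLK3 protein, was at 72.4, 92.5 and 88.2 CPM with vehicle and at 272, 166 and 236 CPM with DOX. Here DOX replicate 2 was the lowest of the DOX libraries, though still above all vehicle libraries. The log2 fold change of KLK2 was 1.41 (SE 0.18). KLK4, a kallikrein that also acts in tooth enamel formation, was at 91.5, 77.7 and 69.9 CPM with vehicle and at 130, 110 and 154 CPM with DOX. Its groups did not overlap, with a smaller log2 fold change of 0.72 (SE 0.14).

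The neighbours of these genes in the kallikrein cluster had lower levels. Of 13 other kallikrein genes, 4 passed the filter on low counts, and none of these 4 passed the test by edgeR. At an unadjusted p under 0.05, 1 was higher and 1 lower, and DESeq2 called 1 of them lower. KLK15, which lies beyond KLK3 from KLK2, was at 5.15 ± 0.901 CPM (SD, n = 3) with vehicle and 5.06 ± 0.466 CPM with DOX, with a log2 fold change of -0.02 (SE 0.21) whose sign changed with the scaling. The pseudogene KLKP1, between KLK2 and KLK4, was at 9.38 ± 1.27 CPM with vehicle and 6.41 ± 0.874 CPM with DOX, with a log2 fold change of -0.55 (SE 0.18, edgeR adjusted p = 0.0534). On the log2(TPM + 1) scale, where all genes shifted up as given below, KLKP1 was at 0.01. KLK2 and KLK4 lie on either side of KLKP1 on the chromosome and were higher on both scales, and the difference between these changes and that of KLKP1 was not tested. KLK2 and KLK3 are close paralogs, and how reads that match both were assigned is not given in the sources used here.

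TMPRSS2, a type II transmembrane serine protease whose androgen-driven promoter is fused to ERG in many prostate cancers, was at 533, 589 and 560 CPM with vehicle. In the DOX libraries it was at 1000, 987 and 1020 CPM, the tightest DOX group, relative to its mean, of the 9 genes. Its log2 fold change was 0.84 (SE 0.09). SLC45A3, the prostate membrane protein prostein, was at 148, 205 and 185 CPM with vehicle and at 326, 257 and 288 CPM with DOX. Its groups did not overlap, and its log2 fold change was 0.69 (SE 0.14). The SLC45A3 gene lies on chromosome 1 and TMPRSS2 on chromosome 21, so these changes were not limited to the kallikrein locus.

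STEAP4, a metalloreductase of the plasma membrane and endosomes, showed the largest fold change of the 9 genes in this experiment from the lowest level. It was counted 21, 22 and 20 times in the vehicle libraries and 510, 294 and 378 times in the DOX libraries. As TMM CPM these are 0.558, 0.747 and 0.710 with vehicle and 15.4, 9.89 and 8.14 with DOX. The log2 fold change was 4.06 (SE 0.31), or 16.6-fold, and every DOX library was far above every vehicle library. Its paralog STEAP1, a cell-surface antigen of prostate cancer on the same chromosome 7, was at 416, 482 and 484 CPM with vehicle and at 359, 480 and 330 CPM with DOX. DOX replicate 2 lay within the vehicle range and the other DOX libraries below it. The log2 fold change of STEAP1 was -0.24 (SE 0.15), and -0.39 without that library.

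FOLH1 encodes prostate-specific membrane antigen, a glutamate carboxypeptidase used for imaging and radioligand therapy, and in contrast to the kallikreins it is known to be repressed by androgens in LNCaP cells. It had the highest TMM CPM of the 9 genes, at 1480, 1830 and 1900 with vehicle and 1490, 1910 and 1440 with DOX. These values overlapped almost fully, with a log2 fold change of -0.11 (SE 0.15). Reads that match both FOLH1 and its near-identical pseudogene FOLH1B on chromosome 11 cannot be assigned with certainty. FOLH1B itself was at 48.6 ± 5.71 CPM with vehicle and 41.2 ± 3.40 CPM with DOX (SD, n = 3), with a log2 fold change of -0.24 and an edgeR adjusted p of 0.162.

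FKBP5 encodes an immunophilin cochaperone of steroid receptors that is induced by androgens and by glucocorticoids. Its level was 175, 218 and 204 CPM with vehicle and 664, 174 and 443 CPM with DOX. DOX replicate 2 lay at the low end of the vehicle libraries, at 174 against a lowest vehicle value of 175 CPM, while the other two DOX libraries were above all of them. As CPM of the library total, DOX replicate 2 was at 185, within the vehicle range of 177 to 209. The log2 fold change was 1.10 with a wide SE of 0.38. Without DOX replicate 2 it was 1.51, and without DOX replicate 1 it was 0.63. That replicate 2 was also the lowest DOX library for KLK2, KLK4, TMPRSS2 and SLC45A3 and the highest for KLK3, STEAP1 and FOLH1, so it did not move the 9 genes in a common direction.

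**Figure D1:**
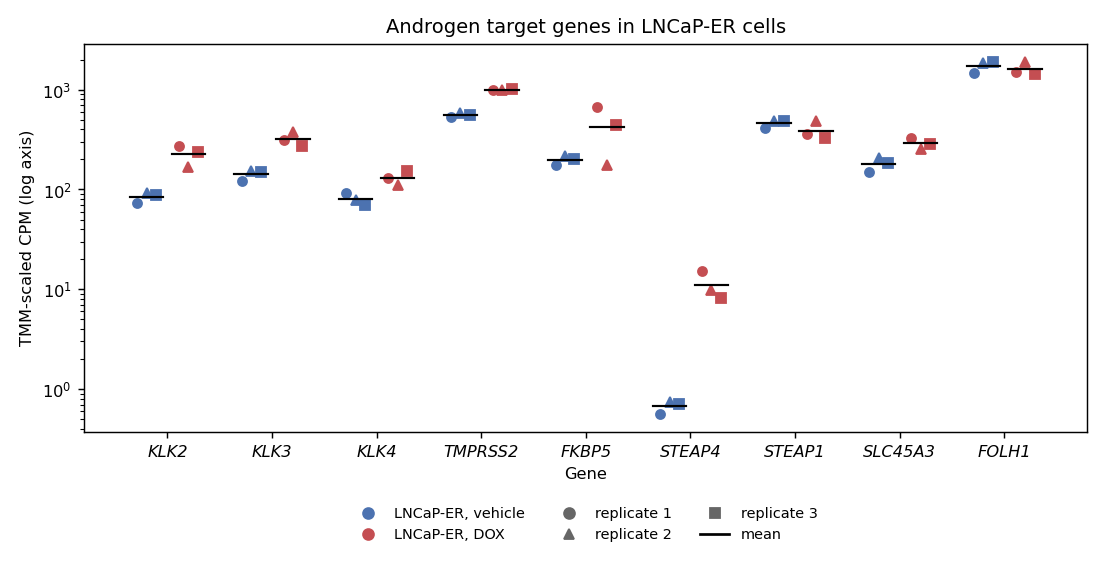
TMM-scaled CPM (log axis) of the 9 androgen target genes in the 6 LNCaP-ER libraries, with vehicle in blue, DOX in red, a marker shape for each replicate number and a black line at the mean of 3 libraries. The DOX points of KLK2, KLK3, KLK4, TMPRSS2, STEAP4 and SLC45A3 lie above all vehicle points, FKBP5 has DOX replicate 2 at 174 CPM beside the lowest vehicle point at 175 CPM, and STEAP1 and FOLH1 overlap.

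Per length of transcript the order of levels differed from the order in CPM. From the deposited TPM values of the vehicle libraries, STEAP1 at 268 ± 19.6 TPM (SD, n = 3) and FOLH1 at 250 ± 10.9 TPM were highest, and their ranges overlapped. TMPRSS2 followed at 111 ± 13.2 TPM, clear of its neighbours. KLK3 at 52.0 ± 4.08 TPM, KLK4 at 45.3 ± 12.9 TPM and SLC45A3 at 34.4 ± 4.04 TPM formed a middle group in which each overlapped the next. KLK2 at 18.8 ± 1.59 TPM, FKBP5 at 11.5 ± 1.09 TPM and STEAP4 at 0.0931 ± 0.00849 TPM were lower, each apart from the one before. In the DOX libraries FOLH1, STEAP1 and TMPRSS2 were at 355 ± 130, 347 ± 142 and 294 ± 54.0 TPM with overlapping ranges, so TMPRSS2 was no longer apart from the first 2. KLK2, at 73.0 ± 12.2 TPM, then overlapped SLC45A3 at 82.6 ± 12.5 TPM.

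The TPM scale carries a shift between the groups. The noncoding RNA RN7SK held 35.2% to 37.7% of all TPM in the vehicle libraries and 24.6% to 31.4% in the DOX libraries, and the median log2 fold change of all genes on the log2(TPM + 1) scale was 0.45. On that scale the median of the 9 genes was 1.39, STEAP1 was at 0.30 and FOLH1 at 0.44, below or near the shift of all genes. The 6 genes with separated groups kept their direction in each of 14 alternative settings, with log2 fold changes of 1.25 to 1.94 for KLK2, 1.07 to 1.73 for KLK3, 0.58 to 1.27 for KLK4, 0.80 to 1.40 for TMPRSS2, 1.57 to 4.23 for STEAP4 and 0.57 to 1.25 for SLC45A3.

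Among 19 genes that encode cofactors, chaperones and steroid-converting enzymes of androgen signalling, 4 passed the edgeR test as lower and 2 as higher, and the list's median log2 fold change was -0.07. The lower genes were the pioneer factor FOXA1 (log2 fold change -0.59, SE 0.15), the Mediator subunit MED1 (-0.75, SE 0.13), the acetyltransferase CREBBP (-0.45, SE 0.08) and the coactivator NCOA3 (-0.42, SE 0.09). The higher genes were the coactivator NCOA1 (0.54, SE 0.12) and the peroxisomal steroid dehydrogenase HSD17B4 (0.36, SE 0.09). On the TPM scale NCOA3 and CREBBP changed sign, at 0.12 and 0.10, both below the shift of all genes.

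Of 96 genes known to be induced by androgens, other than the 9, all passed the filter. By the edgeR test 35 of them rose and 8 fell, where 12.8% of all genes tested rose and 14.5% fell, with a median log2 fold change of 0.23 against -0.02 over all genes. The rising genes with the smallest p included SAT1, a polyamine acetyltransferase, at 1.82 (SE 0.17), LIFR, the receptor of leukemia inhibitory factor, at 1.17 (SE 0.14), TARP, a transcript of the T cell receptor gamma locus expressed in prostate cells, at 1.66 (SE 0.21), and KRT8, a luminal keratin, at 1.10 (SE 0.14). The falling genes with the smallest p included the fatty acid desaturase FADS1 at -1.27 (SE 0.16), the BMP receptor BMPR1B at -0.82 (SE 0.18), IQGAP2 at -1.09 (SE 0.25) and the transcriptional coregulator ZMIZ1 at -0.42 (SE 0.10). The count of rising genes depended on the libraries, at 47 without DOX replicate 2, where 11 fell, and at 17 without vehicle replicate 3, 18 without DOX replicate 3, 19 without DOX replicate 1 and 22 without vehicle replicate 2.

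Of 5 genes known to be repressed by androgens, 3 fell and none rose by the edgeR test, and at an unadjusted p under 0.05, and with DESeq2, 1 rose. ACKR3, a scavenging chemokine receptor, was at 186, 147 and 163 CPM with vehicle and at 12.4, 27.3 and 12.4 CPM with DOX, a log2 fold change of -3.26 (SE 0.30, adjusted p = 0.00046). OPRK1, the kappa opioid receptor, had a log2 fold change of -2.55 (SE 0.52) and UGT2B17, an enzyme that conjugates androgens with glucuronic acid, of -1.28 (SE 0.33). UGT2B15 at -0.89 (SE 0.38) and the receptor tyrosine kinase MET at 1.12 (SE 0.39) did not pass. In the families of STEAP1 and FOLH1, 5 of 6 other genes were tested, STEAP3 (-0.72, SE 0.13) and the carboxypeptidase NAALAD2 (-1.45, SE 0.25) fell, and STEAP2 (-0.22, SE 0.16), STEAP1B (-0.21, SE 0.14) and FOLH1B did not pass.

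Some markers of cell types differed between these groups too, where 12.8% of all genes tested passed as higher and 14.5% as lower. Of 11 luminal markers, all of them tested, 3 passed as higher in the DOX libraries, the keratins KRT8, KRT18 and KRT19, and none as lower, and their summed CPM of the library total was 2490 to 2640 with vehicle and 2880 to 3330 with DOX. The count higher was 1, KRT8, without vehicle replicate 3, DOX replicate 1 or DOX replicate 3. The count lower was also 0 at an unadjusted p under 0.05 and with DESeq2. Of 7 neuroendocrine markers 2 were tested and neither passed in edgeR, 1 being higher at an unadjusted p under 0.05 and with DESeq2, with a summed level of 3.72 to 6.94 CPM with vehicle and 6.59 to 27.2 CPM with DOX. The highest sum was that of DOX replicate 2, and the other DOX libraries were at 6.59 and 7.42 CPM. Of 6 stromal markers 4 were tested, VIM passed as higher and FN1 as lower, and the sum was 215 to 236 CPM with vehicle and 106 to 131 CPM with DOX. Of 4 basal markers only KRT14 was tested, and it passed neither in edgeR or DESeq2 nor at an unadjusted p under 0.05, with a sum of 0.377 to 1.02 CPM against 1.11 to 3.24 CPM. Here too DOX replicate 2 was highest, with 1.40 and 1.11 CPM in the other DOX libraries. The part of these markers in the change of the 9 genes was not tested. In such bulk libraries, more cells of a kind and more RNA per cell cannot be told apart.

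The control libraries of the overexpression experiment held much less of the 9 genes than LNCaP-ER cells did. As CPM of the library total, FOLH1 was at 7.45 to 9.44 in the libraries labelled LNCaP against 1500 to 1810 in the LNCaP-ER vehicle libraries, or 0.519% of the mean level there. KLK4 was at 1.45%, TMPRSS2 at 1.74%, KLK2 at 2.05%, STEAP1 at 3.25%, SLC45A3 at 5.98%, STEAP4 at 16.5% and KLK3 at 18.0% of the level in LNCaP-ER vehicle. FKBP5 was the exception at 88.7%, with 169 to 174 CPM against 177 to 209 CPM. These levels come from tables counted and deposited separately, and the difference was not tested.

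Levels of several marker genes also differed between the libraries labelled LNCaP and the LNCaP-ER vehicle libraries. E-cadherin CDH1 was at 2.93% of the level in LNCaP-ER vehicle and the epithelial adhesion molecule EPCAM at 2.97%. The mesenchymal filament gene VIM was at 457 to 508 CPM against 4.68 to 5.90 CPM, and the neural adhesion molecule NCAM1 at 72.8 to 76.0 CPM against 0 to 0.102 CPM. The luminal keratin KRT8 was at 162 to 164 CPM against 137 to 149 CPM, and its partner KRT18 at 43.0% of the level in LNCaP-ER vehicle. The pioneer factor FOXA1 was at 3.14%, the luminal marker HOXB13 at 14% and the neuroendocrine marker ENO2 at 1050% of that level. CDH1, EPCAM and FOXA1 were thus low but not absent, while KRT8 alone among these genes was at a like level. These libraries are called by their label below.

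**Figure D2:**
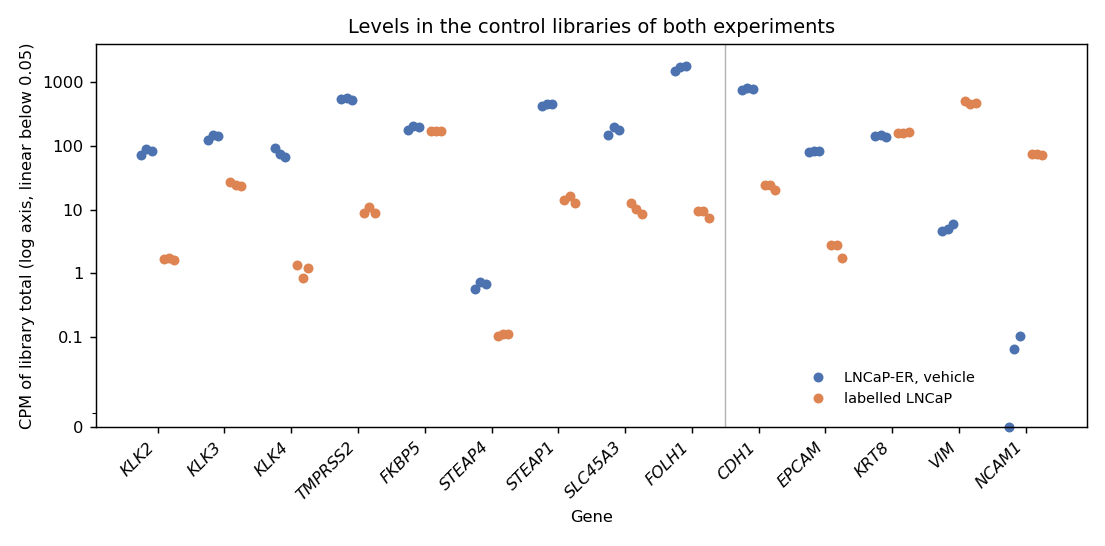
CPM of the library total (log axis, linear below 0.05) in the 3 vehicle libraries of LNCaP-ER (blue) and the 3 libraries labelled LNCaP (orange), for the 9 androgen target genes on the left and marker genes on the right, with a point for each library. FKBP5 and KRT8 are at like levels in both, the other 8 target genes, CDH1 and EPCAM are lower in the libraries labelled LNCaP, and VIM and NCAM1 are higher there.

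In the overexpression experiment, 8 of the 9 genes could be tested and the 8 passed as lower with MUC1-C OE in edgeR, 7 of them with no overlap between groups. KLK2, KLK3 and FOLH1 had no read in any of the 3 MUC1-C OE libraries and TMPRSS2 had 1 read in all, while FKBP5, STEAP1 and SLC45A3 fell by small amounts. In this experiment 34.1% of the 13836 genes tested passed as lower, 33.2% as higher, and 35.9% were lower without overlap, and since the contrast was used to choose the genes, no more is read from these counts. The median of the fitted log2 fold changes of the 8 genes was -4.82, against -0.0092 over all genes tested. With genes at 0 set to the bound that a floor of 3 counts over the group allows, it was -3.21. Counts and not CPM are given first below, since several levels lie near 0.

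KLK3, the most abundant kallikrein here, had 514, 432 and 434 counts under the LNCaP label and 0 in each of the MUC1-C OE libraries. Against the floor of 3 counts over the group, its level was at least 351-fold lower. FOLH1 had 181, 170 and 136 counts under the LNCaP label and 0 in each MUC1-C OE library, at least 124-fold lower. KLK2 fell from 32, 31 and 30 counts to 0 in each library, at least 23.6-fold lower. TMPRSS2 had 167, 199 and 161 counts under the LNCaP label and 0, 0 and 1 with MUC1-C OE, a ratio of 402 with a 95% counting interval of 71.8 to 15900. The interval and these bounds cover counting error only.

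KLK4 had 26, 15 and 22 counts under the LNCaP label and 2, 1 and 10 with MUC1-C OE. The groups did not overlap, but MUC1-C OE replicate 3 held most of the reads of its group. The log2 fold change of KLK4 was -1.86 (SE 0.47) with all libraries and -3.23 without that replicate. STEAP4, with 2 counts in each LNCaP library and none in the MUC1-C OE libraries, did not pass the filter on low counts, and a change of it was not detectable at this depth.

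FKBP5, the member with the most reads in this experiment, was at 162, 166 and 160 CPM in the LNCaP libraries and at 120, 114 and 120 CPM in the MUC1-C OE libraries. Its groups were tight and well apart, with a log2 fold change of -0.46 (SE 0.05). STEAP1 was at 13.5, 15.7 and 12.1 CPM in the LNCaP libraries and at 8.65, 10.9 and 10.6 CPM in the MUC1-C OE libraries, a log2 fold change of -0.46 (SE 0.12) without overlap. SLC45A3 was at 11.8, 9.76 and 7.99 CPM against 7.71, 7.95 and 8.07 CPM. Here LNCaP replicate 3 lay within the MUC1-C OE range, and the log2 fold change of -0.32 (SE 0.14) was -0.17 without LNCaP replicate 1. SLC45A3 passed the edgeR threshold with the 6 libraries, but not without LNCaP replicate 1 or 2, without any of the 3 MUC1-C OE replicates, or with DESeq2. Scaled by library size only, where the median of all genes was -0.16, FKBP5 and STEAP1 were at -0.61 each and SLC45A3 at -0.47, so the 3 genes lay below the shift on that scale as well.

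**Figure D3:**
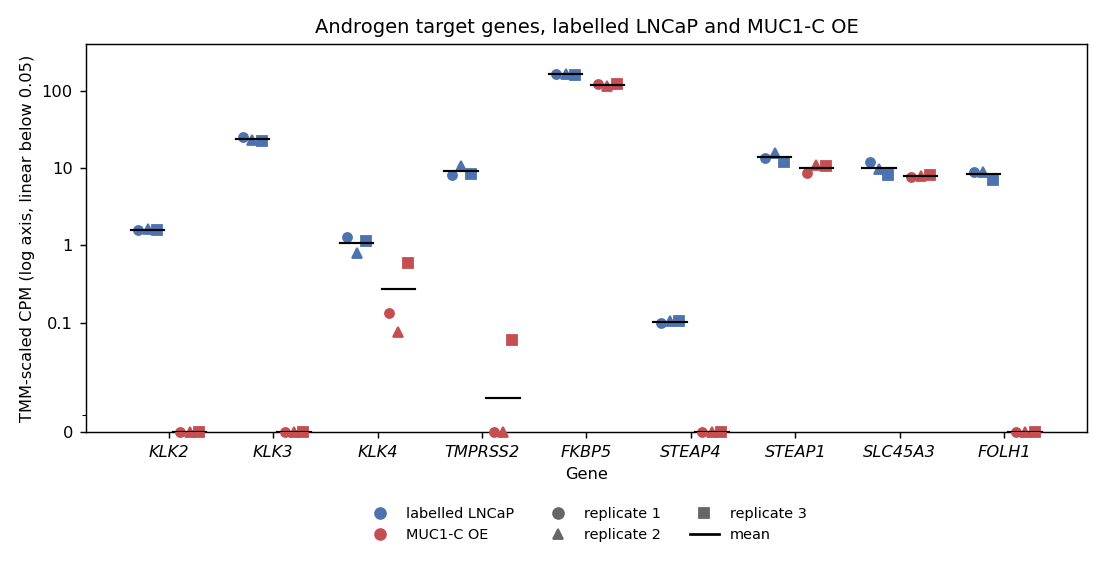
TMM-scaled CPM (log axis, linear below 0.05) of the 9 androgen target genes in the libraries labelled LNCaP (blue) and MUC1-C OE (red), with a marker shape for each replicate number and a black line at the mean of 3 libraries. KLK2, KLK3, STEAP4 and FOLH1 are at 0 in the 3 MUC1-C OE libraries, TMPRSS2 has a read in replicate 3 alone, and FKBP5, STEAP1 and SLC45A3 differ little between the groups.

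Of the 19 genes of cofactors, chaperones and steroid-converting enzymes, 8 passed as lower and 3 as higher with MUC1-C OE in edgeR, and their median log2 fold change was -0.10. FOXA1 fell by 2.48 on the log2 scale (SE 0.10), from 29.7, 33.6 and 30.7 CPM to 6.22, 4.97 and 5.56 CPM. The epithelial factor GRHL2 fell from 3.64 ± 1.08 CPM to 0.0709 ± 0.0771 CPM (SD, n = 3), a ratio of 54.4 with a counting interval of 18.4 to 266, and the androgen-forming enzyme AKR1C3 from 2.41 ± 0.249 CPM to 0.0425 ± 0.0370 CPM. NCOA1 (-0.42, SE 0.05) was also lower. FOXA1 was thus lower with DOX in LNCaP-ER and lower with MUC1-C OE, and NCOA1 was higher in the first comparison and lower in the second.

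Of 96 other genes known to be induced by androgens, 94 were tested, 38 rose and 33 fell by the edgeR test, where 33.2% of all genes tested rose and 34.1% fell, and the median log2 fold change was 0.05 against -0.0092 over all genes. The falling genes with the smallest p included KRT8 (-4.28, SE 0.08), the selenium carrier SELENOP (-3.84, SE 0.13), the guanylate cyclase subunit GUCY1A1 (-2.0, SE 0.10) and the retinaldehyde dehydrogenase ALDH1A3 (-4.45, SE 0.22). The 5 rising genes with the smallest p were FADS1 (4.28, SE 0.09), the endosomal GTPase RAB4A (1.39, SE 0.06), the metalloprotease ADAMTS1 (1.63, SE 0.06), the amino acid transporter SLC38A2 (0.95, SE 0.06) and the scaffold HOMER2 (1.03, SE 0.07). KRT8 and FADS1 thus stand among the named genes of both experiments with opposite signs in each.

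**Figure D4:**
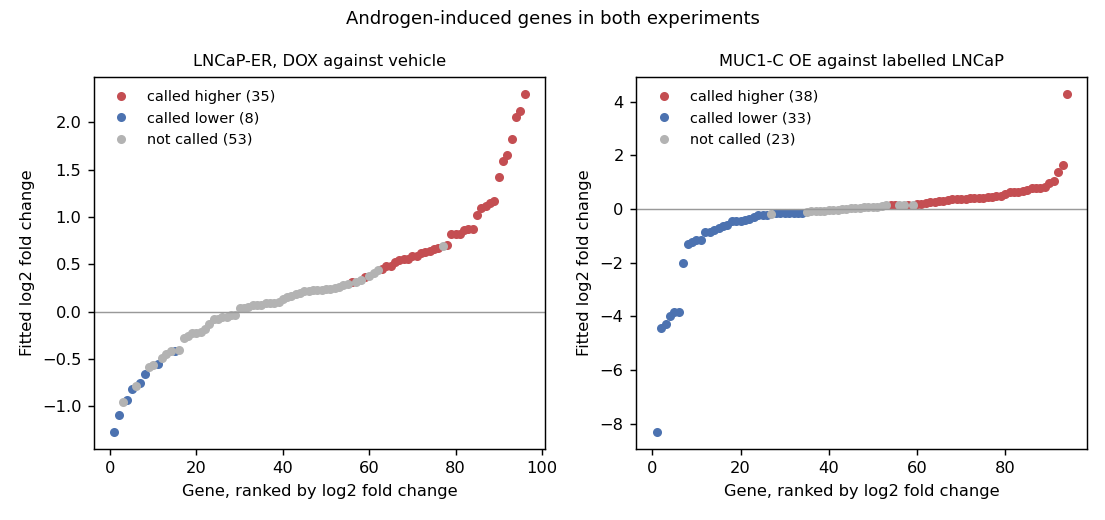
Fitted log2 fold changes of the androgen-induced genes other than the 9, ranked by value in each panel, for DOX against vehicle in LNCaP-ER (left, 96 genes) and for MUC1-C OE against the libraries labelled LNCaP (right, 94 genes), with genes past an adjusted p of 0.05 as higher in red and as lower in blue. On the left 35 genes are called higher and 8 lower, and on the right 38 higher and 33 lower. The lowest point on the right is TARP, which has no read in the MUC1-C OE libraries, so its fitted value is not a bound.

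The relatives of the 9 genes were mostly too low to test in this experiment. Of the 13 other kallikreins only KLK8 passed the filter, and it fell from 2.11 ± 0.430 CPM to 0.289 ± 0.0550 CPM (SD, n = 3). Of 6 other STEAP and FOLH1 family genes 4 were tested and 3 fell, STEAP2 (-1.99, SE 0.08), NAALAD2 (-1.06, SE 0.16) and STEAP1B (-0.52, SE 0.21). STEAP1B did not pass with DESeq2, nor without LNCaP replicate 1 or 3 or MUC1-C OE replicate 1 or 2. STEAP2 was at 38.0, 37.6 and 39.0 CPM in the LNCaP libraries and at 9.33, 9.86 and 9.56 CPM in the MUC1-C OE libraries, a larger log2 difference than the -0.46 of STEAP1. Of 5 androgen-repressed genes 2 were tested and both fell, MET (-0.47, SE 0.05) and ACKR3, which had no read in the MUC1-C OE libraries and was at least 13-fold lower.

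Some cell type markers differed strongly with MUC1-C OE as well, where 34.1% of all genes tested passed as lower and 33.2% as higher. Of 11 luminal markers 9 were tested and 7 passed as lower in edgeR and DESeq2 and none as higher, also at an unadjusted p under 0.05. Their summed CPM of the library total was 333 to 348 in the LNCaP libraries and 65.0 to 72.6 with MUC1-C OE, with the luminal marker PCA3 at 0 in all 6. Of 6 stromal markers 4 were tested, VIM, FN1 and COL3A1 passed as higher and COL1A1 as lower, and the sum was 612 to 670 CPM against 1320 to 1420 CPM. The log2 fold change of FN1 was only 0.14, and FN1 did not pass with DESeq2, with at least 10 counts in every library, without LNCaP replicate 2 or 3, without MUC1-C OE replicate 1, or by library size only, where its sign turned (-0.02). Of 7 neuroendocrine markers 6 were tested, SYP and NCAM1 passed as higher and CHGA, CHGB, ENO2 and INSM1 as lower. Their sum was 153 to 163 CPM against 109 to 129 CPM. By library size only, neither SYP nor NCAM1 passed as higher, and without MUC1-C OE replicate 3 only 3 of these markers passed as lower. None of the 4 basal markers was tested, KRT5 was at 0 in all 6 libraries, and their sum was 0.0547 to 0.167 CPM against 0 to 0.0569 CPM. The part of these markers in the loss of reads on the 9 genes was not tested.

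**Figure D5:**
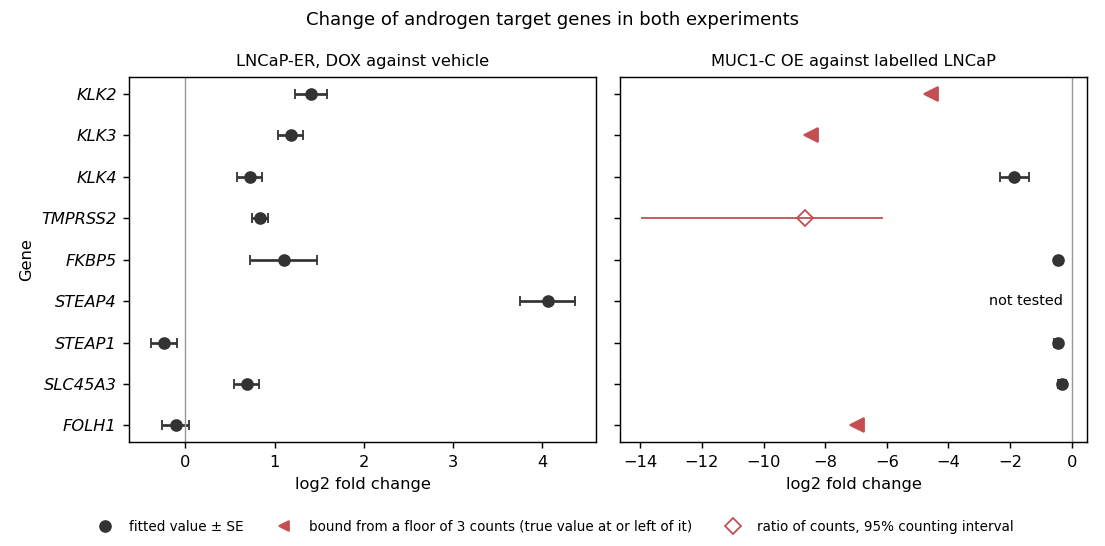
Log2 fold changes of the 9 androgen target genes for DOX against vehicle in LNCaP-ER (left) and for MUC1-C OE against the libraries labelled LNCaP (right), as fitted values with their SE (black), as bounds from a floor of 3 counts over the group (red triangles) and as the ratio of counts of TMPRSS2 with its 95% counting interval (red diamond). On the left 7 target genes lie above 0 and STEAP1 and FOLH1 lie slightly below 0, and on the right the 8 tested genes lie below 0.

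Set side by side, the 9 genes divided differently in the experiments. KLK2, KLK3, KLK4 and TMPRSS2 were higher with DOX in LNCaP-ER and lower with MUC1-C OE, without overlap in either. SLC45A3 was higher with DOX, while its groups overlapped with MUC1-C OE and its call there was lost in most of the fits that left out a library. STEAP4 was higher with DOX and could not be tested with MUC1-C OE. FKBP5 was high in 2 of 3 DOX libraries and had the smallest SE of the 8 genes tested with MUC1-C OE. FOLH1, which overlapped between vehicle and DOX, had no read with MUC1-C OE, and STEAP1 had a negative log2 fold change in both, of -0.24 with overlap and -0.46 without. The experiments share no library, and their baselines differ as given above, so a difference between their changes was not tested.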

How the data were processed

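RNA-Seq libraries of 2 experiments were analyzed, with 3 libraries per group as given by the labels, and the days of treatment were taken from the study's methods. The authors prepared stranded mRNA libraries and deposited whole-number counts per gene symbol without normalization, and for the silencing experiment also TPM values. Per the labels, reads were aligned with STAR to GRCh38 (hg38). Versions, annotation and the counting of reads shared between genes are not given in the sources used here. In the overexpression table, 12 columns of other cell lines were not used. Each experiment was fitted with edgeR 4.0.16 (R 4.3.3): edgeR's filter on low counts, TMM scaling, robust quasi-likelihood test, Benjamini-Hochberg adjustment over all genes, threshold 0.05. Log2 CPM used a prior count of 2. Where a group had no read, a floor of 3 counts over the group gave the bound. Replicates differed by more than sampling noise (2.20 to 61.7 as chi-square divided by its degrees of freedom). With 3 libraries per group, p-values weigh the difference between groups against the spread between cultures of a line. In the overexpression experiment, an effect of the transgene and other differences between the compared lines cannot be told apart. In the silencing experiment no culture without the MUC1 shRNA received DOX, so effects of DOX itself and of the shRNA cannot be told apart.

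The 9 genes, the gene lists, the rule for named genes and the tests were chosen with earlier results of these data known. The list of 96 androgen-induced genes was written from memory of the published signature, and those of cofactors and enzymes, relatives, repressed genes and markers from general knowledge. Named were the 9 genes, MUC1, genes of the short lists, the 5 genes called higher and 5 called lower with the smallest p of the androgen-induced list, and the 5 genes most like the 9 by Pearson r. Some genes that this rule covers are not reported here, and those of the list of cofactors and enzymes were left out of its counts. Older symbols were matched through RefSeq synonyms. Promoter windows came from RefSeq (GRCh38.p14). Gene positions are also those of RefSeq, on GRCh38. On simulated data 100% of genes changed by a log2 of 1 were recovered in the silencing experiment (15261 genes) and 96.0% in the overexpression experiment (13723 genes). The simulation used a single fixed dispersion, held no deviating libraries and changed only genes above a minimum level. It checks the code, and its shares do not give the recovery in the real libraries, whose replicates differed more. Alternatives were each library left out, the replicate number as a block, DESeq2 1.42.0, factors by median of ratios, no scaling factors (library size only), every gene with a read, genes with 10 or more reads in all libraries, calls of at least 1 in absolute log2 fold change, and limma 3.58.1 on log2 of the deposited TPM plus 1 or 0.1, for genes of at least 1 TPM in 3 libraries.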

Additional observations from a re-analysis of the deposited data

How the results depend on the processing

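The 9 genes kept the sign of their log2 fold change in every alternative that could be fitted, except STEAP1 and FOLH1 on the TPM scale. There STEAP1 was at 0.30 and FOLH1 at 0.44 (pseudocount 1) or 0.45 (pseudocount 0.1) in LNCaP-ER, the median of all genes was 0.45 or 0.52, and 95.2% or 95.1% of calls were higher, against 46.8% with TMM. Scaling by library size only gave 59.4% higher calls in LNCaP-ER, and 32.4% against 49.4% with MUC1-C OE. On the TPM scale the median of the 9 genes was 1.39 or 1.40, the androgen-induced genes counted 66 higher and 1 lower with both pseudocounts, and signs turned for NCOA3 (0.12 and 0.13), CREBBP (0.10 and 0.11), KLK15 (0.43 and 0.53), KLKP1 (0.01 and 0.008), STEAP1B (0.32 and 0.35), STEAP2 (0.31 and 0.31), FOLH1B (0.31 and 0.32) and ZMIZ1 (0.13 and 0.13). KLK15 also turned with DESeq2 (0.0038), median-of-ratios factors (0.0021) and library size only (0.05). The cause was not tested.

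Leaving out each library in turn gave 1900 to 5243 called genes in LNCaP-ER against 4006, 17 to 47 androgen-induced genes higher and 2 to 13 lower, a log2 fold change of MUC1 of -1.83 to 0.62 and KLK15 of -0.13 to 0.15. Without vehicle replicate 2 the called genes were 2200, without vehicle replicate 3 they were 1900 and without DOX replicate 3 they were 2067. Androgen-induced genes lower were 13 without vehicle replicate 1, 5 without vehicle replicate 2, 2 without vehicle replicate 3 and 3 without DOX replicate 3. With MUC1-C OE the median of the target genes was -5.51 to -4.66 over these fits, -3.91 with no filter and -0.49 with at least 10 counts in every library, which removes the genes at 0. With a threshold of 1 on the absolute log2 fold change, 988 genes were called in LNCaP-ER, with 12 androgen-induced genes higher and 2 lower, and 1917 with MUC1-C OE, with 4 higher and 11 lower.

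Same-numbered libraries did not deviate together (correlations of -0.149 to 0.0868), so the numbers were not used as pairs. With the replicate number as a block, 4226 genes were called in LNCaP-ER and 8965 against 9312 with MUC1-C OE, MUC1 was at -0.62 in LNCaP-ER, and SLC45A3 with MUC1-C OE was at -0.31 (edgeR adjusted p = 0.0549, against 0.0464 without the block). Not every library correlated best with its own number. At the depth of the overexpression experiment, genes with a few reads per library, such as STEAP4, cannot be compared.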

Other observations

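The 5 genes outside the 9 whose log2 CPM, centred on the control mean of each experiment, followed the mean of the target genes most closely over the 12 libraries were KRT8 (Pearson r = 0.997), FAM174B (0.995), ACTA2 (0.995), GUCY1A1 (0.994) and TNFRSF10B (0.994), out of 9147 genes ranked with a mean of at least 5 CPM in each experiment. The mean was taken over the 8 genes tested in both experiments. The 12 libraries fall into 4 groups that the correlation follows, with the largest step at MUC1-C OE, so these values are a description of the group means. KRT8 had log2 fold changes of 1.10 in LNCaP-ER with DOX and -4.28 with MUC1-C OE, FAM174B of 0.57 and -3.54, ACTA2, the smooth muscle actin, of 0.77 and -3.21, GUCY1A1 of 0.25 and -2.0, and TNFRSF10B, a death receptor for TRAIL, of 0.42 and -1.60.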
